A study of Homo sapiens with 8 samples.

Results

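GATA6, GATA4, HNF4A, FOXA1, FOXA2, SOX9, KLF5 and PDX1 are transcription factors that specify endoderm and pancreatic cell types. Their transcripts were followed in PANC1 cells, a human pancreatic ductal adenocarcinoma line, across targeting of BAP1 and ionising radiation (IR). The members were every probe set annotated to exactly 1 of these symbols, a probe set being the group of array probes summarised into 1 value. There were 15 such probe sets of 49293, for 7 of the 8 genes, and HNF4A was not analysed here. GATA6 and FOXA2 had 1 probe set each, FOXA1 and PDX1 had 2, and GATA4, SOX9 and KLF5 had 3.

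Arrays of 4 groups, 2 per group, were compared, all of PANC1 grown in DMEM. The serum is fetal bovine in the labels and cosmic calf in the study's methods. The sgBAP1 + IR group carried the CRISPR/Cas9 targeting of BAP1 and received 10 Gy, the sgBAP1 group carried the targeting alone, the IR group was of wild-type genotype and received 10 Gy, and the control group was of wild-type genotype and was not irradiated. RNA from irradiated cells was taken 3 days after exposure. BAP1 is a nuclear deubiquitinase that removes ubiquitin from histone H2A. The study's methods describe 1 BAP1 guide followed by puromycin selection, and the study describes PANC1 itself as having lost 1 copy of BAP1. It also describes a non-targeting guide, but it is not clear from the labels if the control and IR cells carried it. Transcripts of BAP1 were not analysed here, so the targeting was not checked in these arrays. No source states that the 2 arrays in each group were of different cultures, so the p-values measure only the spread between these samples, which may be technical.

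In the developing gut tube GATA4, GATA6, FOXA1 and FOXA2 open and occupy regulatory regions of endoderm genes, the FOXA proteins being known as pioneer factors that bind closed chromatin. PDX1 then marks the pancreatic bud, and SOX9 maintains its progenitors and later the ductal cells. In pancreatic cancer, GATA6 is a marker of the classical, better differentiated subtype, whereas KLF5 is a zinc finger factor of epithelial and ductal-like tumour cells.

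The promoter sequences of GATA6 and FOXA1 are shown because these were the members whose transcripts were higher, at an adjusted p under 0.05, with the targeting and with IR alike and for which RefSeq gave a sequence. They are the 250 bases before the annotated start in GRCh38.p14, 5′ to 3′ on the gene's strand, with CCAAT boxes (CCAAT) and GC boxes (GGGCGG) on either strand in capitals. GATA6 lies at chr18:22169339-22169588 on the plus strand and FOXA1 at chr14:37595250-37595499 on the minus strand.
GATA6: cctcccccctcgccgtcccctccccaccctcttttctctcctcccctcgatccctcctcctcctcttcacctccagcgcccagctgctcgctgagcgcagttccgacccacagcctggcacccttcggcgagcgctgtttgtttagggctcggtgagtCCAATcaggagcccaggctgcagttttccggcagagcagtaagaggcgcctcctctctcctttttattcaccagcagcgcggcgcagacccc
FOXA1: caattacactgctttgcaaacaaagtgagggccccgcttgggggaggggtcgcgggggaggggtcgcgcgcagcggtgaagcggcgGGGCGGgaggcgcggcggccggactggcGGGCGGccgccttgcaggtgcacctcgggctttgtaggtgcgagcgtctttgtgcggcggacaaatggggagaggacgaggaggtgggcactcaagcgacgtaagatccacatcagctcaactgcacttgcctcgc
The GATA6 window held 1 CCAAT box, 92 bases before the start, a motif found in 32% of the 35116 windows of this length. The FOXA1 window held 2 GC boxes, 164 and 136 bases before the start, a motif found in 42.6% of the windows. GC content was 64.4% for GATA6 and 67.2% for FOXA1, against a median of 58% over all windows. Neither window held a TATA box (TATAAA), the motif of GATA factors (AGATAA), a forkhead motif (TGTTTAC) or an AP-1 motif (TGACTCA) on either strand. Those 4 motifs were found in 10.7%, 9.17%, 2.98% and 4.2% of the windows. No array in the series measured binding or chromatin at these sequences. No window for GATA4, FOXA2, SOX9 or PDX1 was used here.

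GATA6 was the member that changed most: its transcript was higher in sgBAP1 + IR, sgBAP1 and IR cells than in control cells. Values are log2 expression after the RMA algorithm, so a difference of 1 is a doubling. GATA6 (11723838_at) read 8.2 and 8.23 in sgBAP1 + IR cells. It read 7.49 and 7.32 in sgBAP1 cells, and 7.64 and 7.74 in IR cells. In control cells it read 6.48 and 6.39. Both arrays of every targeted or irradiated group lay above both control arrays, and no values of different groups overlapped. In these bulk samples, more RNA per cell and more cells that express a gene cannot be told apart.

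The changes were fitted with limma over all 8 arrays, and a probe set was called when its adjusted p (Benjamini-Hochberg over 49293 probe sets) was under 0.05 and its change exceeded 1.5-fold. GATA6 rose by 0.97 ± 0.08 log2 in sgBAP1 cells relative to control cells (limma SE, n = 2 arrays per group here and throughout; 1.96-fold, adjusted p = 0.000233). With IR it rose by 1.25 ± 0.08 (2.38-fold, limma adjusted p = 0.00011). The combination raised it by 1.78 ± 0.08 (3.43-fold, 95% interval 1.6 to 1.96 log2, limma adjusted p = 1.5e-05). Rises larger than that of GATA6 were found in 256 probe sets in sgBAP1 cells, 231 in IR cells and 136 in sgBAP1 + IR cells, each relative to control.

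IR also raised GATA6 in cells that already carried the targeting, by 0.81 ± 0.08 log2 (1.76-fold, limma adjusted p = 0.000804). Within irradiated cells, sgBAP1 was above IR alone by 0.53 ± 0.08 (limma adjusted p = 0.00582), and this change of 1.44-fold stayed under the fold threshold. The 3 changes from control thus increased in size in the order sgBAP1, IR, sgBAP1 + IR. The sgBAP1 group lay 0.29 ± 0.08 log2 below the IR group (limma adjusted p = 0.0279), a comparison added after the values were seen. The combined change of 1.78 was 80.2% of the 2.22 obtained by adding both single changes on the log2 scale. The interaction, which is the IR effect in sgBAP1 cells minus the IR effect in cells without the guide, was -0.44 ± 0.11 (95% interval -0.69 to -0.19). Its adjusted p of 0.113 in limma missed the threshold, so the shortfall from additivity was not called.

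**Figure D1:**
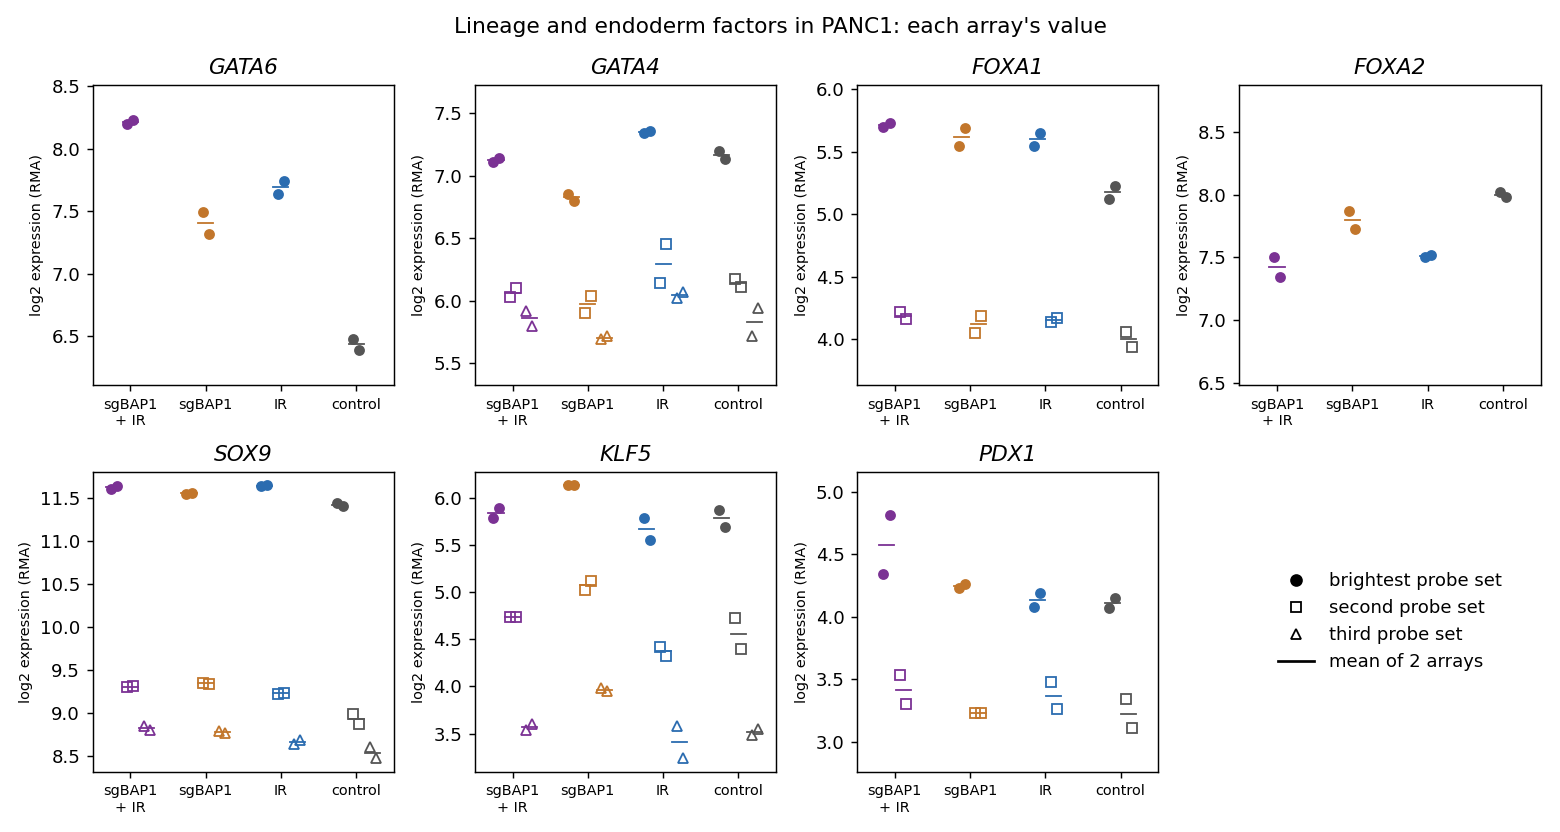
Log2 expression (RMA) of the 7 measured factors on each array, by group; points are arrays, shapes are different probe sets of a gene and lines are means of 2 arrays. GATA6 was between 8.2 and 8.23 in sgBAP1 + IR cells and at 6.39 and 6.48 in control cells, and most other members moved by less than 0.58 log2.

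GATA4, a close relative of GATA6, showed the opposite direction with the targeting. The brightest GATA4 probe set (11725540_a_at) read 7.11 and 7.14 in sgBAP1 + IR cells. It read 6.85 and 6.8 in sgBAP1 cells, 7.34 and 7.36 in IR cells, and 7.2 and 7.13 in control cells. The sgBAP1 arrays were the lowest of the 8 and the IR arrays the highest, with sgBAP1 + IR overlapping the control arrays. GATA4 was lower by 0.34 ± 0.05 log2 in sgBAP1 cells on this probe set (change -0.34, limma adjusted p = 0.00391), which is 0.791-fold and not called. Its change with IR was 0.18 ± 0.05 (limma adjusted p = 0.0616) and with both -0.04 ± 0.05 (limma adjusted p = 0.619).

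The effect of IR on GATA4 in sgBAP1 cells was 0.3 ± 0.05 (limma adjusted p = 0.00947), and the effect of sgBAP1 in irradiated cells was -0.22 ± 0.05 (limma adjusted p = 0.0346). The interaction of 0.12 ± 0.08 missed the threshold (limma adjusted p = 0.495). The other GATA4 probe sets gave -0.18 ± 0.1 (11725541_a_at) and -0.13 ± 0.08 (11725542_a_at) in sgBAP1 cells. With IR they gave 0.15 ± 0.1 and 0.22 ± 0.08. The signs were those of the brightest probe set in both comparisons, but neither probe set passed the test in either.

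FOXA1, a forkhead pioneer factor, was higher in all 3 targeted or irradiated groups by a similar and moderate amount. Its brighter probe set (11723333_at) read 5.7 and 5.73 in sgBAP1 + IR cells. It read 5.55 and 5.69 in sgBAP1 cells, 5.55 and 5.65 in IR cells, and 5.12 and 5.23 in control cells. The control arrays were the lowest on this probe set, and the sgBAP1 and IR arrays overlapped just below the sgBAP1 + IR arrays. The change from control was 0.54 ± 0.07 in sgBAP1 + IR cells (limma adjusted p = 0.00132). It was 0.45 ± 0.07 in sgBAP1 cells (limma adjusted p = 0.00428) and 0.43 ± 0.07 in IR cells (limma adjusted p = 0.0078). All 3 were under 1.5-fold, although without the second control array the sgBAP1 + IR change reached 0.6 and was called.

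IR added 0.1 ± 0.07 to FOXA1 in sgBAP1 cells and sgBAP1 added 0.11 ± 0.07 in irradiated cells, with limma adjusted p of 0.392 and 0.329 and 95% intervals of -0.07 to 0.27 and -0.06 to 0.28. The interaction was -0.33 ± 0.1 (limma adjusted p = 0.182). The dimmer probe set (11748971_a_at) lay between 3.94 and 4.22 on every array, below the lower quartile of the arrays, which was 4.3 to 4.39. Its changes from control were 0.19, 0.12 and 0.15 in sgBAP1 + IR, sgBAP1 and IR cells, and none passed the test.

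FOXA2, a paralogue of FOXA1 that is needed for early endoderm in mouse, went the other way. It read 7.5 and 7.34 (11740933_a_at) in sgBAP1 + IR cells, and 7.87 and 7.73 in sgBAP1 cells. It read 7.5 and 7.52 in IR cells and 8.02 and 7.98 in control cells. Both irradiated groups lay below both groups without IR. FOXA2 differed from control by -0.58 ± 0.07 log2 in sgBAP1 + IR cells (0.669-fold, limma adjusted p = 0.00113). This lay just short of the fold threshold of 0.58 log2. It was called at -0.6 when the arrays were centred on their medians or without the second control array, and at -0.66 without the first sgBAP1 + IR array.

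With IR alone FOXA2 changed by -0.49 ± 0.07 (0.71-fold, limma adjusted p = 0.00506), and in sgBAP1 cells IR changed it by -0.38 ± 0.07 (limma adjusted p = 0.0135). The targeting alone gave -0.2 ± 0.07 (limma adjusted p = 0.0895) and the targeting in irradiated cells -0.09 ± 0.07 (limma adjusted p = 0.479). The IR effects with and without the targeting differed by 0.12 ± 0.11 (limma adjusted p = 0.633). FOXA1 and FOXA2 thus carried opposite signs in each comparison with control.

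SOX9, a high mobility group factor of pancreatic progenitors and ducts, read above control on every probe set in all 3 groups, by moderate amounts. The brightest probe set (11758216_s_at) read 11.61 and 11.64 in sgBAP1 + IR cells. It read 11.55 and 11.56 in sgBAP1 cells, 11.64 and 11.65 in IR cells, and 11.44 and 11.41 in control cells. Every control array lay below every other array, and both single groups and the combination were close together. The changes on this probe set were 0.2 ± 0.05 in sgBAP1 + IR cells (limma adjusted p = 0.0174) and 0.13 ± 0.05 in sgBAP1 cells (limma adjusted p = 0.103). In IR cells the change was 0.22 ± 0.05 (limma adjusted p = 0.0202).

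The second SOX9 probe set (11720448_at) moved more. It read 9.3 and 9.31 in sgBAP1 + IR cells, 9.35 and 9.34 in sgBAP1 cells, 9.22 and 9.23 in IR cells, and 8.99 and 8.87 in control cells. Its changes from control were 0.38 ± 0.06 with both (limma adjusted p = 0.00238), 0.42 ± 0.06 in sgBAP1 cells (limma adjusted p = 0.0021) and 0.3 ± 0.06 in IR cells (limma adjusted p = 0.0138). Irradiation of sgBAP1 cells left this probe set at -0.04 ± 0.06 relative to sgBAP1 alone. The interaction was -0.34 ± 0.08 (limma adjusted p = 0.113), the same sign as for GATA6 and FOXA1.

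The third SOX9 probe set (11720447_s_at) gave 0.29 ± 0.06 with both (limma adjusted p = 0.0106), 0.24 ± 0.06 in sgBAP1 cells (limma adjusted p = 0.028) and 0.13 ± 0.06 in IR cells (limma adjusted p = 0.222). All 9 SOX9 changes from control were above 0, 7 passed the adjusted p and none passed the fold threshold.

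KLF5 was above control in sgBAP1 cells on all 3 probe sets, which was not the case in IR cells. Its brightest probe set (11744572_a_at) read 5.78 and 5.89 in sgBAP1 + IR cells. It read 6.13 and 6.13 in sgBAP1 cells, 5.78 and 5.55 in IR cells, and 5.87 and 5.69 in control cells. The sgBAP1 arrays were the highest and the other 3 groups overlapped. KLF5 changed by 0.35 ± 0.1 log2 in sgBAP1 cells on this probe set (limma adjusted p = 0.035), against 0.06 ± 0.1 with both and -0.11 ± 0.1 with IR.

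A second KLF5 probe set (11748762_x_at) read 4.74 and 4.73 in sgBAP1 + IR cells. It read 5.02 and 5.12 in sgBAP1 cells, 4.42 and 4.32 in IR cells, and 4.72 and 4.4 in control cells. Again the sgBAP1 arrays were the highest. The change in sgBAP1 cells was 0.51 ± 0.1 (1.43-fold, limma adjusted p = 0.00983), and without the first control array it reached 0.67 and was called. The third KLF5 probe set (11748761_a_at), at 3.24 to 3.98 one of the dimmest members, changed by 0.44 ± 0.1 in sgBAP1 cells (limma adjusted p = 0.0187).

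The IR effect on KLF5 in sgBAP1 cells was negative on all 3 probe sets, at -0.29, -0.34 and -0.39 with limma adjusted p of 0.0767, 0.0595 and 0.0386. The sgBAP1 group set directly against the IR group gave 0.46 ± 0.1, 0.7 ± 0.1 and 0.56 ± 0.1 on the 3 probe sets (limma adjusted p = 0.0108, 0.00233 and 0.00674). The middle value was called, in a comparison added after the values were seen in which 5.96% of all probe sets were called. The KLF5 interactions lay between -0.28 and -0.15 and missed the threshold. Suffixes _a_at, _s_at and _x_at mark probe sets that can read more than 1 transcript, and probe sets of 1 gene need not report the same transcripts.

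PDX1, the homeobox factor of the pancreatic bud and of beta cells, was dim on every array. Its brighter probe set (11758256_s_at) read 4.34 and 4.81 in sgBAP1 + IR cells. It read 4.23 and 4.26 in sgBAP1 cells, 4.08 and 4.19 in IR cells, and 4.07 and 4.15 in control cells. The sgBAP1 + IR arrays were the highest but lay far apart, and all other values were below the lower quartile of the arrays. The change with both was 0.47 ± 0.14 (limma adjusted p = 0.0345), and it was called at 0.7 without the first of these arrays but was 0.24 without the second. The other probe set (11741835_at) ran from 3.11 to 3.53 and passed no test.

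Across the 15 probe sets, GATA6 was the sole call in each comparison with control. In sgBAP1 + IR cells 1 of 15 was called, against 7.19% of all probe sets. In sgBAP1 cells 1 of 15 was called against 4.68%, and in IR cells 1 of 15 against 3.05%. These counts are near the background for a list of 15. For IR in sgBAP1 cells 1 of 15 was called (3.09% of all probe sets). No member was called for sgBAP1 among irradiated cells (1.81% of all) or for the interaction (0.442%). Without the fold threshold 7 members passed in sgBAP1 + IR cells (33.3% of all probe sets), 8 in sgBAP1 cells (25.9%), 5 in IR cells (17.4%), 4 for IR in sgBAP1 cells (19%), 2 for sgBAP1 among irradiated cells (15.9%) and 0 for the interaction (0.592%). At an unadjusted p under 0.05, limma counted 5 of 15 members for the sgBAP1 effect in irradiated cells, against 31.7% of all probe sets, and 3 of 15 for the interaction, against 16.4%. The methods' t-test, which the study names for its data as a whole, was run at an unadjusted p under 0.01 with the same fold. It called 0 members for the sgBAP1 effect in irradiated cells, where it called only 0.962% of all probe sets.

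By sign, 12 of 15 probe sets were above control in sgBAP1 + IR cells, 11 in sgBAP1 cells and 11 in IR cells. The median change of the members was 0.19, 0.14 and 0.15 log2 in these groups, against 0.022, 0.001 and -0.001 over all probe sets. Arrays of both groups did not overlap for 10 members in sgBAP1 + IR cells, 13 in sgBAP1 cells and 9 in IR cells. Among all probe sets the non-overlapping share was 65.7%, 60.8% and 56.5%. The 3 comparisons share the control arrays, and several probe sets read the same gene, so these counts are not independent.

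**Figure D2:**
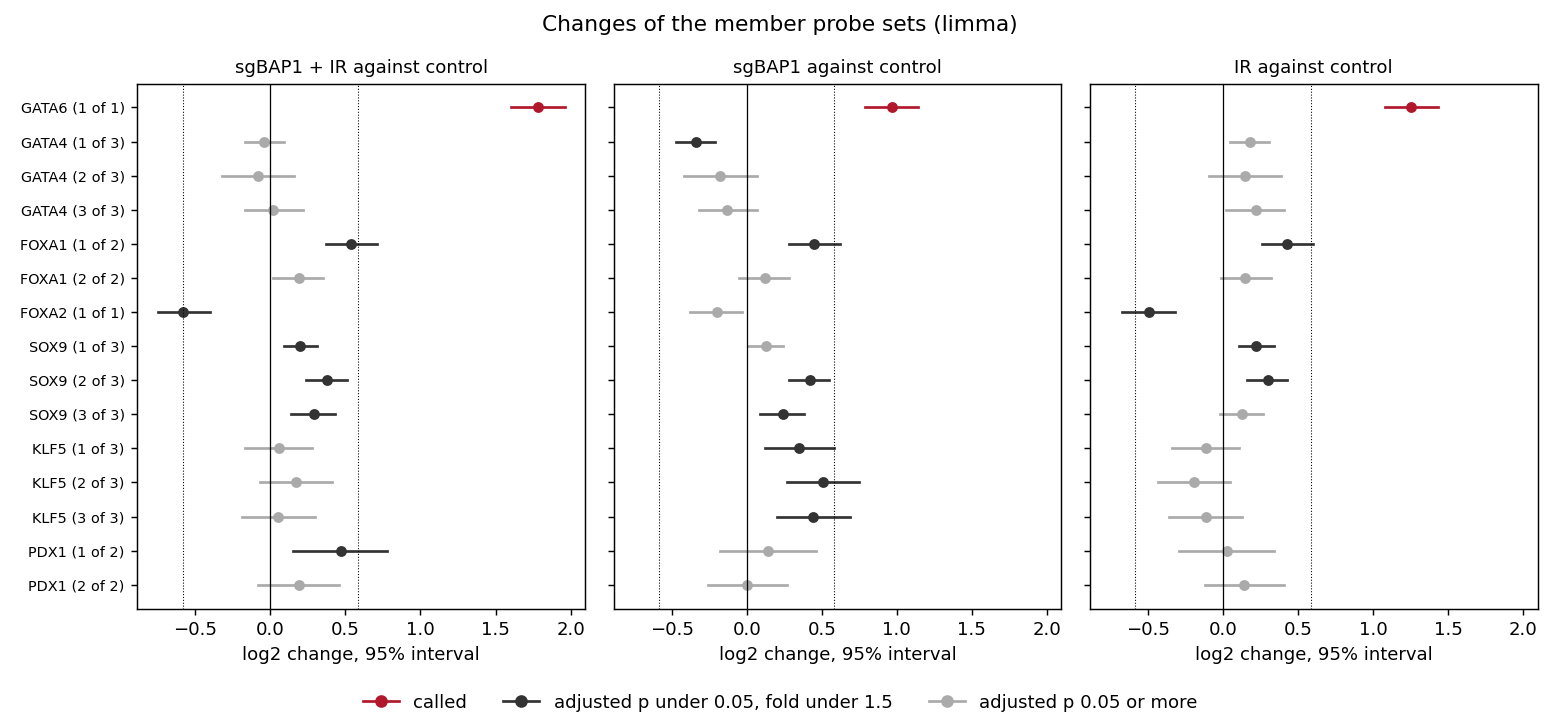
Log2 change and 95% interval (limma) of each member probe set against control in sgBAP1 + IR, sgBAP1 and IR cells; dotted lines mark 1.5-fold and colours mark the call. GATA6 lies at 1.78, 0.97 and 1.25, and the point of every other member stays within or at the dotted lines. Some of their intervals cross these lines, such as that of FOXA2 in sgBAP1 + IR cells (-0.75 to -0.4).

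The rise of GATA6 was next set beside the genes around it on chromosome 18, in RefSeq order on GRCh38.p14 and limited to measured genes. None of the 3 genes on either side (SNRPD1, ABHD3 and MIB1, then CTAGE1, CABLES1 and SLC35D4) was called against control. Their changes ran from -0.58 to 0.12 log2 over the 3 comparisons, the lowest being SLC35D4 in sgBAP1 + IR cells. MIB1, the measured gene just before GATA6 and a ubiquitin ligase of Notch signalling, changed by -0.41 with both, -0.38 in sgBAP1 cells and -0.11 in IR cells. Over all 7 members, 6 of 42 such neighbours were called in at least 1 comparison with control, against 10.6% of all genes. Among them was TBC1D4 near KLF5, a Rab GTPase-activating protein, at 0.99 with both, 0.94 in sgBAP1 cells and 0.67 in IR cells. KLF12, a KLF family repressor beside KLF5, changed by -0.81, -0.84 and -0.38 in the same groups.

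**Figure D3:**
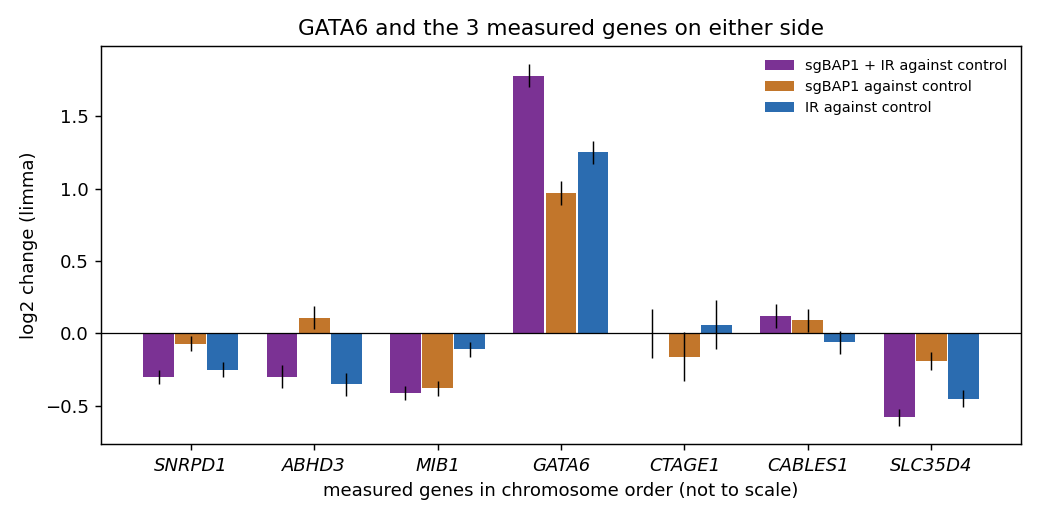
Log2 change ± SE (limma, n = 2 arrays per group) of GATA6 and of the 3 measured genes on either side, in chromosome order and not to scale, with bars for sgBAP1 + IR, sgBAP1 and IR against control. GATA6 reaches 1.78 while its neighbours lie between -0.58 and 0.12.

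Genes with the pattern most like that of GATA6 were chosen as the 3 with the smallest root mean square difference of the 3 changes from control, among 1795 genes called at least once with a mean of 5 log2 or more. LIPH, a phosphatidic acid lipase, was nearest at 0.114 log2, with changes of 1.71 in sgBAP1 + IR cells, 1.15 in sgBAP1 cells and 1.3 in IR cells. MGLL, monoglyceride lipase, followed at 0.117 with 1.6, 0.87 and 1.25. FBXO32, a muscle-known F-box ubiquitin ligase subunit, was at 0.122 with 1.71, 1.06 and 1.08. The likeness is over 4 group means and is a description.

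Other transcription factors of foregut endoderm and pancreas were examined as a list of 40, of which 34 were measured. With both treatments 3 rose and 1 fell, in sgBAP1 cells 2 rose, and in IR cells 1 rose and 1 fell. Of all probe sets 7.19%, 4.68% and 3.05% were called in these groups, which also holds for the later lists. Each listed gene was counted on its brightest probe set only, whereas these shares include dim probe sets. Among probe sets with a mean of at least 5 log2 the shares were 9.9%, 6.7% and 3.99%. The list's median change was 0.08, 0.04 and 0 log2, against 0.03, 0 and 0 over all genes. SOX17, a definitive endoderm factor, read 7.13 and 7.24 in sgBAP1 + IR cells, 7.38 and 7.26 in sgBAP1 cells, 6.41 and 6.39 in IR cells, and 6.32 and 6.22 in control cells. Both groups with the targeting were above both without it. SOX17 rose by 1.05 ± 0.07 in sgBAP1 cells (2.07-fold, limma adjusted p = 0.000147) and by 0.79 ± 0.07 with the targeting among irradiated cells (limma adjusted p = 0.00136). Neither of its 2 other probe sets was called.

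HHEX, a homeobox factor of the liver and ventral pancreas, had the same split. It read 7.67 and 7.69 in sgBAP1 + IR cells, 7.62 and 7.77 in sgBAP1 cells, 6.96 and 7.04 in IR cells, and 7.02 and 6.97 in control cells. The targeting raised it by 0.7 ± 0.07 without IR and by 0.68 ± 0.07 with IR (limma adjusted p = 0.000465 and 0.00167).

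MEIS2 and NKX6-2 split by IR instead. MEIS2, a TALE homeobox cofactor of PBX proteins, read 6.19 and 6.06 in sgBAP1 + IR cells, 4.92 and 4.86 in sgBAP1 cells, 6.04 and 6.09 in IR cells, and 4.79 and 4.9 in control cells. It rose with IR by 1.22 ± 0.07 (2.33-fold, limma adjusted p = 8.47e-05) and in sgBAP1 cells by 1.23 ± 0.07 (limma adjusted p = 0.000116), while none of its 4 other probe sets was called. NKX6-2, a homeobox relative of the beta cell factor NKX6-1, read 6.28 and 6.44 in sgBAP1 + IR cells, 7.61 and 7.56 in sgBAP1 cells, 6.53 and 6.62 in IR cells, and 8.07 and 8.01 in control cells. It fell by 1.46 on the log2 scale with IR (0.364-fold, limma adjusted p = 4.33e-05), against -1.23 ± 0.07 with IR in sgBAP1 cells. FOXA3, the third FOXA gene, was between 3.9 and 4.27 on all arrays and was not called in any comparison.

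A chosen list of 20 family relatives of the members was measured in full, while other relatives such as SOX17 and FOXA3 were in the list above. With both treatments 5 of the 20 rose and 1 fell, in sgBAP1 cells 3 rose and 1 fell, and in IR cells 1 rose. Of all probe sets 7.19%, 4.68% and 3.05% were called in these groups. The list's median change was 0.14, -0.01 and 0.1 log2, against 0.03, 0 and 0 over all genes. KLF4, a relative of KLF5 known from pluripotency and from early pancreatic metaplasia, read 6.67 and 6.57 in sgBAP1 + IR cells, 5.62 and 5.59 in sgBAP1 cells, 5.75 and 5.86 in IR cells, and 4.54 and 4.34 in control cells. Its groups were ordered as those of GATA6 were. KLF4 rose by 2.18 ± 0.08 with both (4.54-fold, limma adjusted p = 9.74e-06), by 1.17 ± 0.08 in sgBAP1 cells and by 1.37 ± 0.08 in IR cells. Its control mean of 4.44 was near the lower quartile of the arrays, and its other probe set was not called.

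GATA3, the GATA factor of T cells and breast epithelium, rose by 0.85 ± 0.07 in sgBAP1 + IR cells (limma adjusted p = 0.000201). Its changes of 0.39 ± 0.07 in sgBAP1 cells and 0.58 ± 0.07 in IR cells were not called (limma adjusted p = 0.00688 and 0.00224). Of its 2 other probe sets, 2 were called higher with both, 2 in sgBAP1 cells and 1 in IR cells. GATA2, a factor of blood progenitors, read 9 and 9.03 in sgBAP1 + IR cells, 9.55 and 9.47 in sgBAP1 cells, 8.75 and 8.75 in IR cells, and 9.14 and 9.09 in control cells. It was not called, with changes of -0.11 ± 0.05 with both, 0.39 ± 0.05 in sgBAP1 cells and -0.37 ± 0.05 in IR cells. Of its 5 other probe sets, none had the opposite sign in sgBAP1 cells and 2 had it in IR cells. TRPS1, an atypical GATA repressor, was lower in sgBAP1 + IR than in IR cells (change -0.64 ± 0.07, limma adjusted p = 0.00205). KLF6 and KLF10 rose in sgBAP1 cells by 0.67 and 0.65.

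Of the cofactors and upstream signals 23 of 24 were measured, with 2 risen and 1 fallen with both, none called by limma in sgBAP1 cells (5 at an unadjusted p under 0.05) and 2 risen in IR cells. Of all probe sets 7.19%, 4.68% and 3.05% were called in these groups. The list's median change was 0.09, 0.04 and 0.01 log2, against 0.03, 0 and 0 over all genes. YAP1, in this list, was not called in sgBAP1 cells on its brightest probe set. Of its 7 other probe sets, 2 were called higher there and 2 had the opposite sign. ZFPM2, also known as FOG2 and a partner protein of GATA factors, read 6.32 and 6.36 in sgBAP1 + IR cells, 5.34 and 5.42 in sgBAP1 cells, 6.21 and 6.26 in IR cells, and 5.19 and 4.8 in control cells. It rose with IR by 1.24 ± 0.12 (limma adjusted p = 0.000778) and, in sgBAP1 cells, by 0.97 ± 0.12 (limma adjusted p = 0.00215), and its other probe set was called in the first of these comparisons and not in the second. BMP4, a secreted signal of gut tube patterning, rose with IR by 0.88 ± 0.13 and with both by 0.93 ± 0.13. TLE1, a Groucho-type corepressor that FOXA proteins can recruit, fell with both (-0.67 ± 0.08, limma adjusted p = 0.00064).

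**Figure D4:**
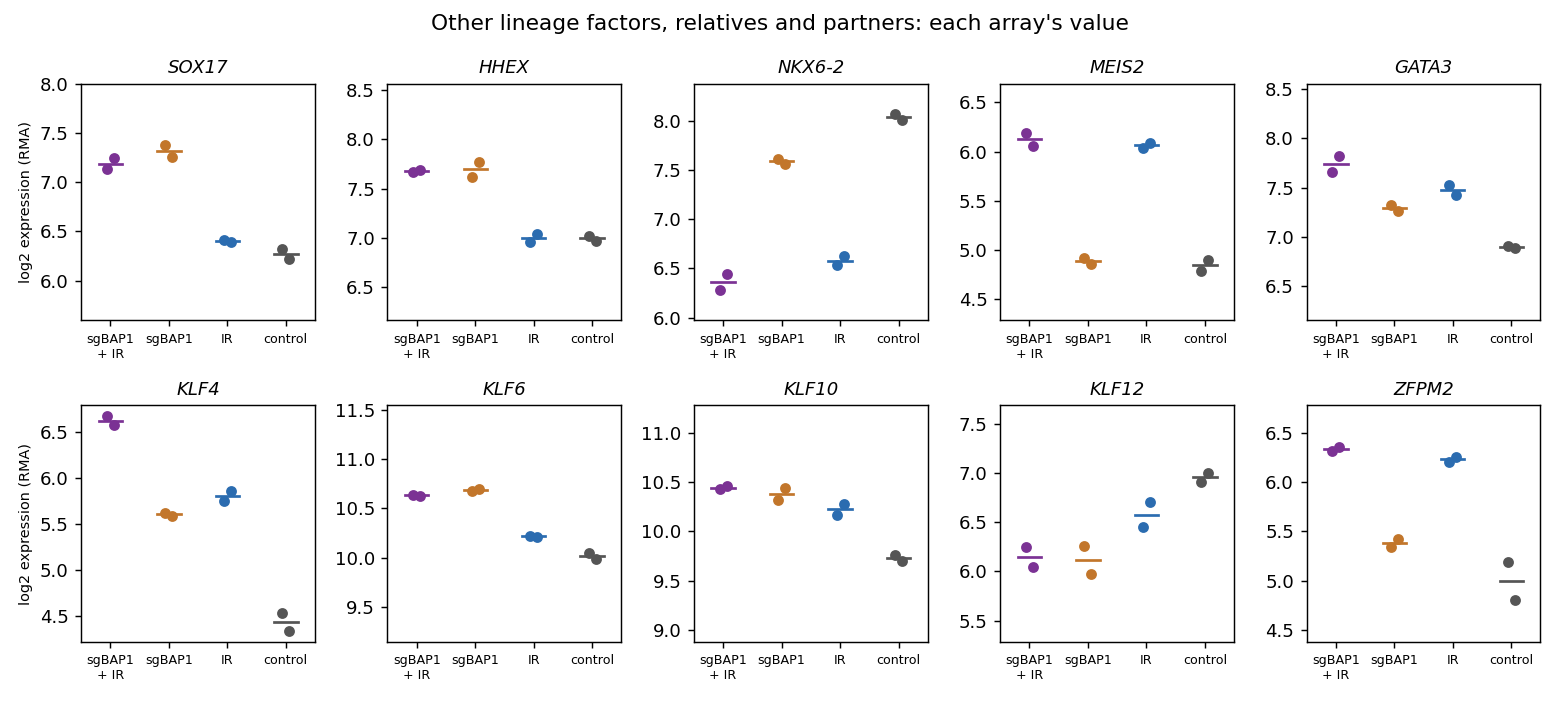
Log2 expression (RMA) on each array of 10 related genes, by group; points are arrays and lines are means of 2 arrays. SOX17 and HHEX are higher in both groups with the targeting, MEIS2 and ZFPM2 are higher and NKX6-2 lower in both irradiated groups, and KLF4 is highest with both.

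Genes of the classical pancreatic cancer subtype, of which GATA6 is a marker, were measured in full, and none of the 28 listed was called higher in any comparison by limma. Of all probe sets only 3.01% were called higher with both, 2.23% in sgBAP1 cells and 1.88% in IR cells, so this count is near the background. At an unadjusted p under 0.05, 5 of the 28 were higher and 3 lower with both (43.6% of all probe sets passed in either direction). In sgBAP1 cells 1 was higher and 2 lower (36.7%), and in IR cells 1 was higher and 3 lower (30.4%). The single one called lower was FOXQ1, a forkhead factor, which fell by 1.27 on the log2 scale with IR, against -0.96 ± 0.05 with both (limma adjusted p = 2.83e-05 and 3.98e-05). The list's median was 0.09 with both, 0.02 in sgBAP1 cells and 0.03 in IR cells. AGR2, a classical subtype gene and secretory pathway protein, read 12.42 and 12.43 in sgBAP1 + IR cells, 12.36 and 12.33 in sgBAP1 cells, 12.38 and 12.44 in IR cells, and 12.61 and 12.61 in control cells. Its changes were -0.18 ± 0.05, -0.26 ± 0.05 and -0.2 ± 0.05 (limma adjusted p = 0.0276, 0.00822 and 0.0339), and it was not called on this probe set. Of its 3 other probe sets, 1 was called lower in sgBAP1 cells and 1 had the opposite sign there.

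Of the basal-like subtype genes 21 of 30 were measured, and 4 rose with both, 1 in sgBAP1 cells and 3 in IR cells, with none called lower by limma (2, 1 and 4 lower at an unadjusted p under 0.05). Of all probe sets 3.01%, 2.23% and 1.88% were called higher in these groups, and 4.18%, 2.45% and 1.16% lower. The medians of the basal-like list were 0.24, 0.08 and 0.07 log2, against 0.03, 0 and 0 over all genes. FGFBP1, a carrier protein for fibroblast growth factors, rose most, by 2.53 ± 0.09 with both and by 2.75 ± 0.09 with IR, against control arrays of 3.92 and 4.14 that were under the lower quartile. KRT7, a keratin of ducts that is also in the ductal list, rose by 1.56 ± 0.07 with both (limma adjusted p = 2.1e-05) and by 0.8 ± 0.07 with IR. In sgBAP1 cells KRT7 changed by 0.56 ± 0.07 (limma adjusted p = 0.00165), under the fold threshold. KRT15, a keratin of basal cells, rose by 0.9 ± 0.06 with both, 0.81 ± 0.06 in sgBAP1 cells and 0.71 ± 0.06 in IR cells. Of genes known as HNF4A targets in liver and intestine, 21 of 24 were measured, and ANG was the only one called in any comparison (-0.59 ± 0.13 with both, limma adjusted p = 0.0122).

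Markers of pancreatic cell types were read on the same arrays. The mean of 11 measured ductal markers was 8.17 to 8.2 log2 in sgBAP1 + IR cells, 7.89 to 7.91 in sgBAP1 cells, 8.12 to 8.15 in IR cells and 7.77 to 7.82 in control cells. The ductal mean was thus higher than control in all 3 groups, and more so in the irradiated ones. With both 3 of the 11 rose and 8 were not called, in sgBAP1 cells none was called by limma (5 higher and 0 lower at an unadjusted p under 0.05), and in IR cells 4 rose and 7 were not called. The median change was 0.17, 0.1 and 0.14, below the shift of the mean in the irradiated groups. KRT19, a ductal keratin, rose by 1.23 ± 0.05 with both and by 1.12 ± 0.05 with IR. In sgBAP1 cells KRT19 changed by 0.36 ± 0.05 (limma adjusted p = 0.00313), under the fold threshold. The part of the ductal markers in the GATA6, SOX9 and FOXA2 changes was not tested. The 12 acinar markers averaged 5.37 to 5.4, 5.29 to 5.33, 5.18 to 5.24 and 5.18 to 5.23 in the same order of groups, and only PRSS3, a trypsinogen, was called, on 1 of its 2 probe sets. The 8 islet markers averaged 4.81 to 4.87, 4.53, 4.9 to 4.96 and 4.63 to 4.65, in that order too. In IR cells 2 of the 8 rose, SCG2 and CHGB, both secretory granule proteins, by 1.49 ± 0.11 and 1.1 ± 0.06, while only 3 of 8 were above control and the median change was -0.01. Fibroblast markers averaged 4.56 to 4.77 and immune markers 4.62 to 4.77 over all arrays, and in both lists 6 genes stayed under 5 log2 on every array. COL1A1, a fibroblast collagen, was called lower with both (-1.17 ± 0.06), in sgBAP1 cells (-0.61 ± 0.06) and in IR cells (-0.85 ± 0.06). CD68, a macrophage marker, rose in sgBAP1 cells by 0.93 ± 0.08 and fell in IR cells (-0.63 ± 0.08), its other probe set not being called.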

How the data were processed

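Expression was measured on 8 Affymetrix PrimeView 3' IVT arrays of biotin-labelled RNA. The authors deposited log2 expression values obtained with RMA, that is, background subtraction, quantile normalisation between arrays and a summary per probe set. The genome build of the array design is not given in the sources used here. The 102 control probe sets were left out and 49293 were tested, of which 44988 carried 1 symbol, 1832 several and 2473 none. The median of an array was 6.12 to 6.15 log2. Pairs of arrays correlated at 0.998 to 0.9985 within a group and at 0.9881 to 0.9952 between groups (Pearson's r over probe sets). The number of arrays limits the precision.

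A linear model of 4 group means was fitted per probe set in limma 3.58.1 (R 4.3.3), with 4 residual and 3.22 prior degrees of freedom, and the code was tested on simulated data. Calls needed a Benjamini-Hochberg adjusted p under 0.05 together with a change of more than 1.5-fold. The published methods pair that fold with a p under 0.01, without stating whether it was adjusted, and made their array calls with the Transcriptome Analysis Console. Their general statistics section names Student's t-test, and one-way analysis of variance for more than 2 groups. The t-test was run here as an alternative, called the methods' t-test, and is not a rerun of the study's array calls. A gene in a list was its brightest probe set over all arrays. Named genes were all members, up to 4 called genes with the largest change per list and comparison, and the 3 genes most like GATA6. FOXA3, GATA2, AGR2, YAP1 and the chromosome neighbours were added after their values were seen. Alternatives were the p threshold, the fold threshold, the t-test, fits on 2 groups, a trended prior, further normalisation, median centring, a filter on dim probe sets and leaving out each array. The members and lists were chosen with earlier results of these data known. Replicates were numbered in the order of the sample records. Promoter sequences and gene order came from RefSeq, and 4 of 8 members had a sequence.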

Additional observations from a re-analysis of the deposited data

Results flagged for a closer look

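KRT15, a basal cell keratin in the basal-like list, passed the test for a difference between its IR effects with and without the targeting, but not when any 1 array was left out. It read 7.05 and 7 in sgBAP1 + IR cells, 6.92 and 6.95 in sgBAP1 cells, 6.8 and 6.87 in IR cells, and 6.17 and 6.07 in control cells. The IR effect was 0.09 log2 in sgBAP1 cells and 0.71 in cells without the targeting, and the interaction was -0.62 ± 0.08 (limma SE, n = 2 arrays per group, adjusted p = 0.0368). Among all probe sets 0.333% were called lower in the interaction. Without each of the 8 arrays in turn, the KRT15 interaction was -0.68 to -0.57 with limma adjusted p of 0.0767 to 0.164, and no probe set was called.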

How the results depend on the processing

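No paired analysis was possible because replicate numbers are not given in the labels. GATA6 kept its direction throughout, at 1.73 to 1.83 with both, 0.88 to 1.05 in sgBAP1 cells, 1.2 to 1.3 in IR cells and 0.73 to 0.9 for IR in sgBAP1 cells, and its calls were lost only under the methods' t-test. Without the fold threshold, 7 members passed with both, 8 in sgBAP1 cells, 5 in IR cells, 4 for IR in sgBAP1 cells and 2 for sgBAP1 in irradiated cells. The methods' t-test called 0 members for IR in sgBAP1 cells, where it called 1.62% of all probe sets. After Benjamini-Hochberg adjustment it called 0 members in all 3 comparisons with control and 0 for IR in sgBAP1 cells. It then called 150, 34 and 0 probe sets of all with both, in sgBAP1 and in IR cells, against 1971, 1339 and 843 unadjusted. For IR in sgBAP1 cells it called 2 of all after adjustment. The interaction calls over all probe sets were 218, against 484 at an unadjusted p, 526 with a trended prior and 357 without dim probe sets, and they were 0 without any 1 of the 8 arrays. Median centring gave 2 calls with both, FOXA2 being added. Leaving out 1 array gave 1 to 3 calls with both (FOXA2 and PDX1 added without the first sgBAP1 + IR array, FOXA1 and FOXA2 without the second control array), 1 to 2 in sgBAP1 cells (KLF5 added without the first control array) and 0 to 1 for sgBAP1 in irradiated cells (PDX1, 0.67, added without the first sgBAP1 + IR array).

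Of 90 member changes, 75 never reversed, and the largest that did was 0.16 in size. Quantile normalisation turned GATA4 with both (11725540_a_at) to 0 from -0.04, GATA4 with both (11725542_a_at) to -0.01, FOXA1 for sgBAP1 in irradiated cells (11748971_a_at) to -0.02 and the PDX1 interaction (11741835_at) to 0. Leaving out 1 array gave, with both, -0.09 to 0.14 for GATA4 (11725542_a_at) and -0.03 to 0.15 for KLF5 (11744572_a_at). In sgBAP1 cells it gave -0.11 to 0.12 for PDX1 (11741835_at). In IR cells it gave 0 to 0.31 for GATA4 (11725541_a_at), -0.23 to 0.01 for KLF5 (11744572_a_at), -0.28 to 0.06 for KLF5 (11748761_a_at) and -0.03 to 0.08 for PDX1 (11758256_s_at). For sgBAP1 in irradiated cells it gave -0.01 to 0.33 for KLF5 (11748761_a_at) and -0.07 to 0.16 for PDX1 (11741835_at). For the interaction it gave -0.21 to 0.1 and -0.17 to 0.05 for GATA4 (11725541_a_at, 11725542_a_at), -0.31 to 0.01 for KLF5 (11748762_x_at) and -0.07 to 0.16 for PDX1 (11741835_at). The cause was not tested. List counts moved by over 1.5 times in 16 cases and stayed within that in 182.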
